A study of Mus musculus with 4 samples.

Results

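Mcm2, Mcm3, Mcm4, Mcm5, Mcm6, Mcm7, Cdc6, Cdt1, Pcna and Ung, a set of 10 genes of replication licensing and of the G1/S transition, were taken by symbol from the 32285 genes of the count tables. All 10 were present once. Tumors formed by DLA (Dalton's lymphoma ascites) cells were profiled by droplet-based 3′ single-cell RNA sequencing in 4 libraries: Control 1 and Control 2 from untreated mice, and Treated 1 and Treated 2 from mice given SP11, an HSP90 inhibitor. The methods describe Swiss albino mice that received the DLA cells intraperitoneally. Once tumors were established, SP11 was given orally at 30 mg/kg for 17 days. The methods also mention 2 independent sets of control and treated samples, without saying which libraries form a set. The labels call the controls untreated while a supplementary legend calls them vehicle controls. Mouse ages and the number of mice behind each library are not given in the sources used here. The p-values between groups therefore measure the spread between these libraries. Where cells of the same library are compared, the p-values concern contrasts made inside libraries. Those against immune cells come from the 2 treated libraries only and lean on variation estimated over all genes together.

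The products of Mcm2 to Mcm7 form the ring that becomes the core of the replicative helicase. In G1 the origin recognition complex, Cdc6 and Cdt1 load this ring onto DNA, a step called licensing, and in S phase it unwinds DNA ahead of the polymerases. Pcna is the sliding clamp that holds polymerases on DNA, and Ung removes uracil from DNA. Canonical histone genes lie in clusters and are transcribed mainly in S phase, so their transcripts mark cells that replicate DNA, while many licensing genes are E2F targets switched on before and during that phase.

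Tumour cells were barcodes with at least 5 UMIs (unique molecular identifiers, each counting 1 captured transcript) of Krt8 and Krt18 together. Taking the controls and then the treated libraries in number order, 845 of 916, 528 of 566, 1256 of 1831 and 582 of 1091 kept cells passed this gate. Their median depths were 10935, 17214, 8892 and 19843 UMIs. The study calls the cells a lymphoma, yet Epcam, an epithelial adhesion gene, stood at 194 to 227 CPM (UMIs per 1000000 UMIs of the same cells). Other epithelial junction genes were low or absent, with Cldn4 at 1.37 to 3.52 CPM, Cdh1 at 0.165 to 0.651 CPM and Cldn7 at 0 CPM in every library. Ptprc, the pan-leukocyte gene, was at 0.518 and 0.211 CPM for the controls against 7.81 and 5.19 CPM after SP11. They are therefore named here by their keratin gate. Of the tumour cells, 7, 2, 112 and 56 also passed an immune gate. Immune genes outside the gates summed to 38.3, 24.9, 333 and 149 CPM in tumour cells. Between 60 and 359 barcode sequences occurred in both libraries of a pair, and over the pairs the median correlation of the 2 profiles of such a barcode was 0.376 to 0.786, beside 0.388 to 0.780 for unrelated barcodes. Immune RNA in tumour cells thus moved with the treatment, and its part in the results below was not tested beyond leaving out the cells that passed an immune gate.

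Promoter letters of the genes are shown because the group is known for its shared E2F control. RefSeq promoters on GRCm38.p6, covering 250 bases before to 50 after each start, were found for 9 of the 10 genes, with 2 starts for Mcm7. Mcm4 had no entry. Only the 250 bases before each start were searched, here and in all promoters, and the 50 after it were not. The E2F-type letters TTTCCCGC, TTTGGCGC, TTTCGCGC and TTTGCCGC were searched on both strands, with overlapping matches kept. They occurred in 4 of the 10 promoters, those of Mcm5, Mcm6, Cdc6 and 1 start of Mcm7, or 40%, against 1.86% of all 32851 promoters of the same length. CCAAT occurred in 70.0% of them and in 33.8% of all. The 160 bases before the start that lie outside annotated exons are given for 3 genes with a match and for Ung, which had none. Mcm2, Mcm3, Cdt1 and Pcna had no match either. Mcm2, Mcm3 and Pcna were called higher at high histone level in the main fit below, while Cdt1 and Ung were not. Whether the letters bear on the levels was not tested. Capitals mark the E2F-type letters.
Mcm5, chr8:75109349-75109508, plus strand: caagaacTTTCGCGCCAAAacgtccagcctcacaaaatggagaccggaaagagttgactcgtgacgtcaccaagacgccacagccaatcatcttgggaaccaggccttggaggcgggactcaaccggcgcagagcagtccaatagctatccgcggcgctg
Mcm6, chr1:128359706-128359865, minus strand: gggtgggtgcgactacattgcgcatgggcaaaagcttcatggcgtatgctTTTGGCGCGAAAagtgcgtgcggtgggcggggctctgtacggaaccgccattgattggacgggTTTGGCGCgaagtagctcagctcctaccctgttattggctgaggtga
Cdc6, chr11:98907991-98908150, plus strand: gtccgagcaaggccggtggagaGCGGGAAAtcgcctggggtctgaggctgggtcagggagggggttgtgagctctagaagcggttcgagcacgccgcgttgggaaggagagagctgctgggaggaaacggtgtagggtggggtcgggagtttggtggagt
Ung, chr5:114130226-114130385, plus strand: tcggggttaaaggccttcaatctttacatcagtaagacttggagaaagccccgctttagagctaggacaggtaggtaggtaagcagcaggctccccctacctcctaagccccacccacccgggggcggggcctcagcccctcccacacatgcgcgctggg
In Mcm5 and Mcm6 a pair of matches overlaps on opposite strands, and Mcm6 has 1 more match closer to the start. A match of letters is a description and not evidence of binding.

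The first question was whether the levels of the genes in tumour cells differed after SP11. None of the 10 passed the test, and their fitted differences were small. Mcm2 stood at 15.5 and 14.1 CPM for Control 1 and Control 2, and at 19.2 and 22.8 CPM for Treated 1 and Treated 2. Mcm5 stood at 30.1 and 31.0 CPM against 39.3 and 44.9 CPM. Mcm7 stood at 68.6 and 71.4 CPM against 84.2 and 85.9 CPM. In these 3 helicase genes both treated libraries lay above both controls. Mcm3, the subunit with the highest level, was also higher in both treated libraries, but by little, at 180 and 182 CPM against 189 and 191 CPM. The other members of the ring overlapped between groups. Mcm4 had 65.8 and 76.6 CPM without SP11 and 73.4 and 71.2 CPM with it. Mcm6 was found at 61.5 and 69.8 CPM against 65.4 and 91.3 CPM, with Treated 2 alone standing high.

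The loading factors showed no separation of the groups. Cdc6, the ATPase that recruits the ring, varied only between 27.2 and 29.8 CPM over the 4 libraries. Cdt1, its partner, gave 25.5 and 33.3 CPM against 31.0 and 46.1 CPM, so that Treated 1 lay between the controls. Pcna was measured at 94.5 and 132 CPM against 98.8 and 115 CPM. Here the controls spanned the whole treated range. Ung was measured at 27.9 and 23.6 CPM against 26.4 and 32.6 CPM, again with overlap. In all, 4 of the 10 genes had both treated libraries above both controls and 0 the opposite, while 36.8% of the 11588 genes tested had both treated libraries above both controls, so the members' share was close to the background.

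**Figure D1:**
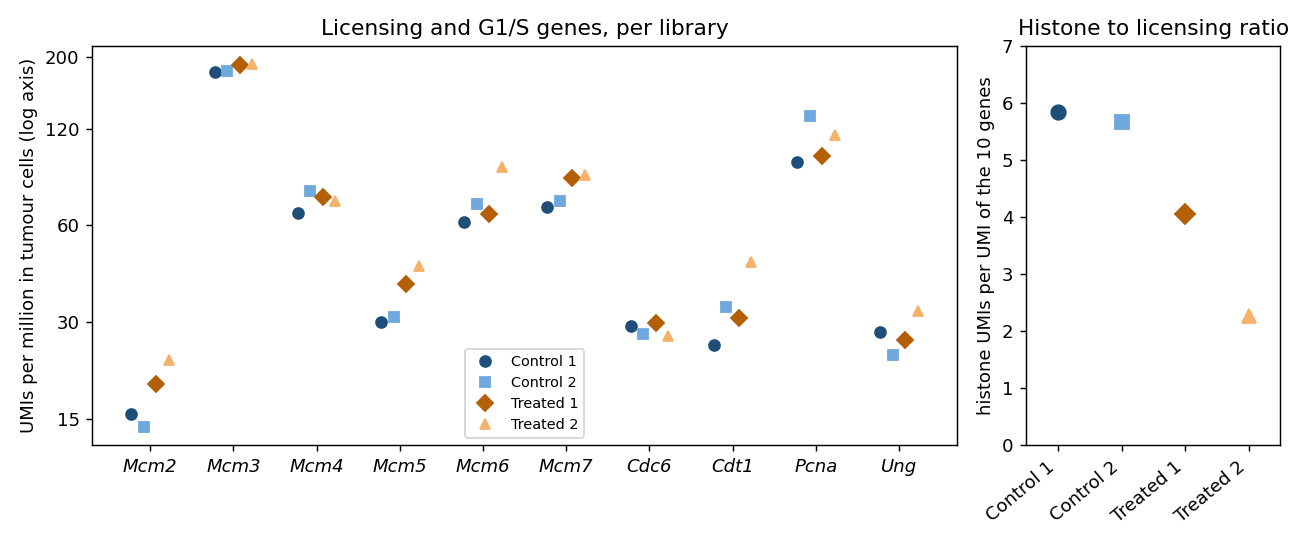
Left, level of each gene in tumour cells in CPM on a log axis, 1 point per library. Right, UMIs of clustered histone genes per UMI of the 10 genes together in the same cells. Mcm3 and Cdc6 vary least across libraries and Cdt1 most, at 25.5 to 46.1 CPM, and the histone ratio is 5.85 and 5.67 without SP11 and 4.05 and 2.26 with it.

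On sums of UMIs over the tumour cells of each library, edgeR's quasi-likelihood test called 0 of the 10 genes, against 2.31% of all genes tested (268 genes, 210 higher and 58 lower after SP11). At an unadjusted p under 0.05, 2 of the 10 were counted, Mcm2 and Mcm5, beside 1691 of the 11588 genes tested. Mcm2 had a log2 fold change of 0.37 (SE 0.15, edgeR adjusted p = 0.266) and Mcm5 one of 0.33 (SE 0.13, edgeR adjusted p = 0.223). DESeq2 also called 0 of the 10. The remaining fitted log2 fold changes were 0.26 for Cdt1, 0.15 for Mcm7, 0.12 for Mcm6, 0.06 for Ung, -0.05 for Mcm3, -0.10 for Mcm4, -0.12 for Cdc6 and -0.21 for Pcna. The median over the 10 was 0.09 and that over all genes tested was 0.00. When libraries were scaled to their totals in place of TMM, the median of all genes moved to 0.12, the values of Mcm3, Mcm4 and Cdc6 became positive at 0.07, 0.02 and 0.01, and again none was called. In sums over cells, fewer cells at a stage of the cycle and less RNA per cell cannot be told apart.

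**Figure D2:**
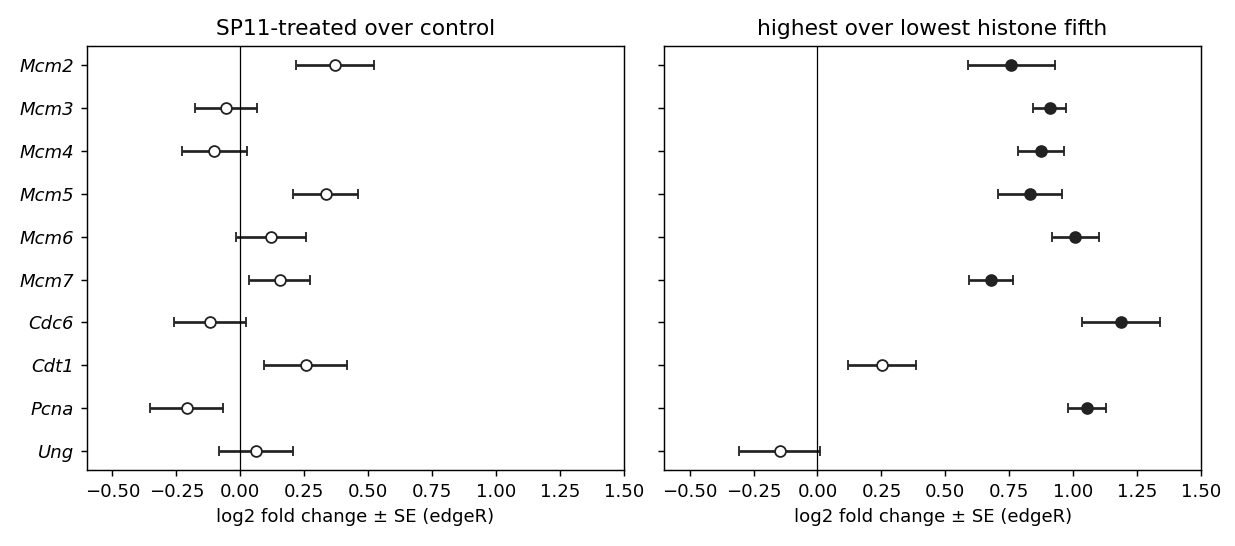
Fitted log2 fold change of each gene with its standard error from edgeR, for SP11-treated over control libraries (left) and for the tumour cells with the most over those with the least histone RNA (right). Filled points passed the adjusted threshold of 0.05; none does on the left and 8 do on the right.

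Few other genes of the cell cycle lists passed this test. Of 18 genes of origin recognition and firing, 29 of the fork and of nucleotide supply and 16 of mitosis, 0 were called in either direction, with median log2 fold changes of -0.17, -0.08 and -0.11. Among 22 G1/S regulators 1 was called, Ccnd2, a D-type cyclin, at a log2 fold change of 3.28 (SE 0.74, edgeR adjusted p = 0.0222). With the tumour cells that also passed an immune gate left out, Ccnd2 fell below the expression filter and 0 of the 21 remaining regulators were called.

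The histone transcripts took a different course from the licensing genes. Clustered histone genes summed to 3501 and 3752 CPM for the controls against 2660 and 1648 CPM after SP11, with Treated 2 lowest. Of the 50 such genes tested, 26 were lower after SP11 and 0 higher by edgeR, with a median log2 fold change of -1.04. The largest was Hist1h2ab at -1.74 (SE 0.27, edgeR adjusted p = 0.00138). Without Control 1 the count was 17 of 54, without Control 2 it was 7 of 54, and with DESeq2 it was 8 of 50. Most clustered histone transcripts lack a poly(A) tail, so 3′ capture sees a part of them that was not measured here. The 10 licensing and G1/S genes summed to 599 and 661 CPM against 657 and 728 CPM over the same cells. Histone UMIs numbered 5.85 and 5.67 per UMI of the 10 genes without SP11 and 4.05 and 2.26 with it. The share of a tumour cell's UMIs on histone genes had a median of 0.187% and 0.20% in the controls, 0.181% in Treated 1 and 0.0847% in Treated 2. Both treated medians lay below both controls, Treated 1 by little.

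Shares of tumour cells with at least 1 UMI were compared after every cell was thinned to 5000 UMIs, which kept 799, 511, 1151 and 575 cells. Mcm5 was found in 11.3% (95% Clopper-Pearson interval 9.16% to 13.7%) and 11.7% (9.08% to 14.9%) of control cells. In the treated libraries it was found in 18.2% (16.1% to 20.6%) and 16.9% (13.9% to 20.2%). Mcm3 was found in 53.4% and 50.7% of control cells and in 59.6% and 58.3% of treated cells. Mcm7 was found in 27.9% and 29.7% against 33.5% and 34.3%, and Mcm2 stood at 7.13% and 5.87% against 8.77% and 9.39%. Both treated libraries lay above both controls for these 4 genes and for Mcm4, that is 5 of 10, with 32.8% of all genes tested doing so. The other 5 overlapped. When at least 2 UMIs were required, Mcm4 turned round, at 7.01% and 6.85% of control cells against 5.13% and 6.26% of treated cells. Mcm2 then overlapped. Cdt1 now separated the groups, at 1.00% and 0.978% of control cells against 1.30% and 2.78% of treated cells. Ung did so too, at 1.13% and 1.37% against 1.74% and 1.91%. The share of all genes that separated the groups at this setting was not computed. A UMI of any of the 10 was seen in 88.2% and 90.6% of control cells and in 93.0% and 92.0% of treated cells. With 2 libraries a group the two-sided exact permutation test cannot give a p below 0.333, which each of the 5 genes reached. Without thinning, 0 of the 10 separated the groups, at unequal depths. Intervals cover counting error only.

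The second question was how the genes followed the histone RNA of the single cell. Within each library, tumour cells were ranked by the share of their UMIs on clustered histone genes and cut into 5 bins of equal size. Histone genes were left out of the totals of the levels that follow. The bins spanned 409 to 7982 histone CPM in Control 1, 503 to 8057 in Control 2, 333 to 6087 in Treated 1 and 191 to 3850 in Treated 2. Median depth was higher in the highest than in the lowest bin, at 12381 against 11063 UMIs in Control 1 and 22509 against 17095 UMIs in Treated 2, but did not climb bin by bin.

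Most of the helicase genes rose with the histone level in every library. Mcm3 went from 101 to 232 CPM between the lowest and the highest bin in Control 1 and from 116 to 243 CPM in Control 2. In the treated libraries it went from 139 to 236 CPM and from 140 to 234 CPM. The starting level was thus higher in both treated libraries and the final level alike. Mcm6 went from 36.9 to 82.9, 41.1 to 96.0, 51.2 to 78.2 and 58.1 to 126 CPM in the libraries, controls first. Mcm4 went up by 1.68 to 2.00 times, Mcm5 by 1.43 to 2.10, Mcm7 by 1.41 to 2.00 and Mcm2 by 1.23 to 2.51. No library showed any of these 6 genes lower in the highest bin than in the lowest.

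Pcna, the clamp, rose from 62.1 to 136, 91.2 to 189, 72.3 to 136 and 71.3 to 162 CPM in the same order of libraries and was highest in bin 5 in all 4. With thinned cells its peak lay in bin 4 in Control 1, at 133 against 132 CPM in bin 5, and in Treated 2, at 166 against 145 CPM. Cdc6 went from 11.3, 16.0, 17.7 and 12.3 CPM in the lowest bin to 46.7, 34.2, 41.6 and 41.7 CPM in bin 4, and then stood at 32.4, 33.4, 34.0 and 32.0 CPM in bin 5. Its peak was in bin 4 in every library at full depth, though bins 3 to 5 of Control 2 were nearly level. With cells thinned to 5000 UMIs its peak stayed in bin 4 in 3 libraries, while in Control 2 it lay in bin 5, at 53.4 CPM against 33.5 CPM in bin 4. Cdt1 differed between libraries, with ratios of the highest to the lowest bin of 1.55, 0.980, 0.972 and 1.41. With thinned cells these ratios were 1.57, 1.58, 1.18 and 1.46. At full depth Ung took no common course from the lowest to the highest bin. It was at 23.6, 10.7, 25.4 and 26.9 CPM in the lowest bin and at 19.1, 20.5, 18.8 and 21.4 CPM in the highest, so that it was higher in the highest bin in Control 2 and lower in the other 3 libraries, and its peak lay in bin 2, 3, 4 and 3. With thinned cells the ratios of the highest to the lowest bin of Ung were 0.546, 1.02, 0.801 and 0.478. Its peak then lay in bin 3, 3, 4 and 3.

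**Figure D3:**
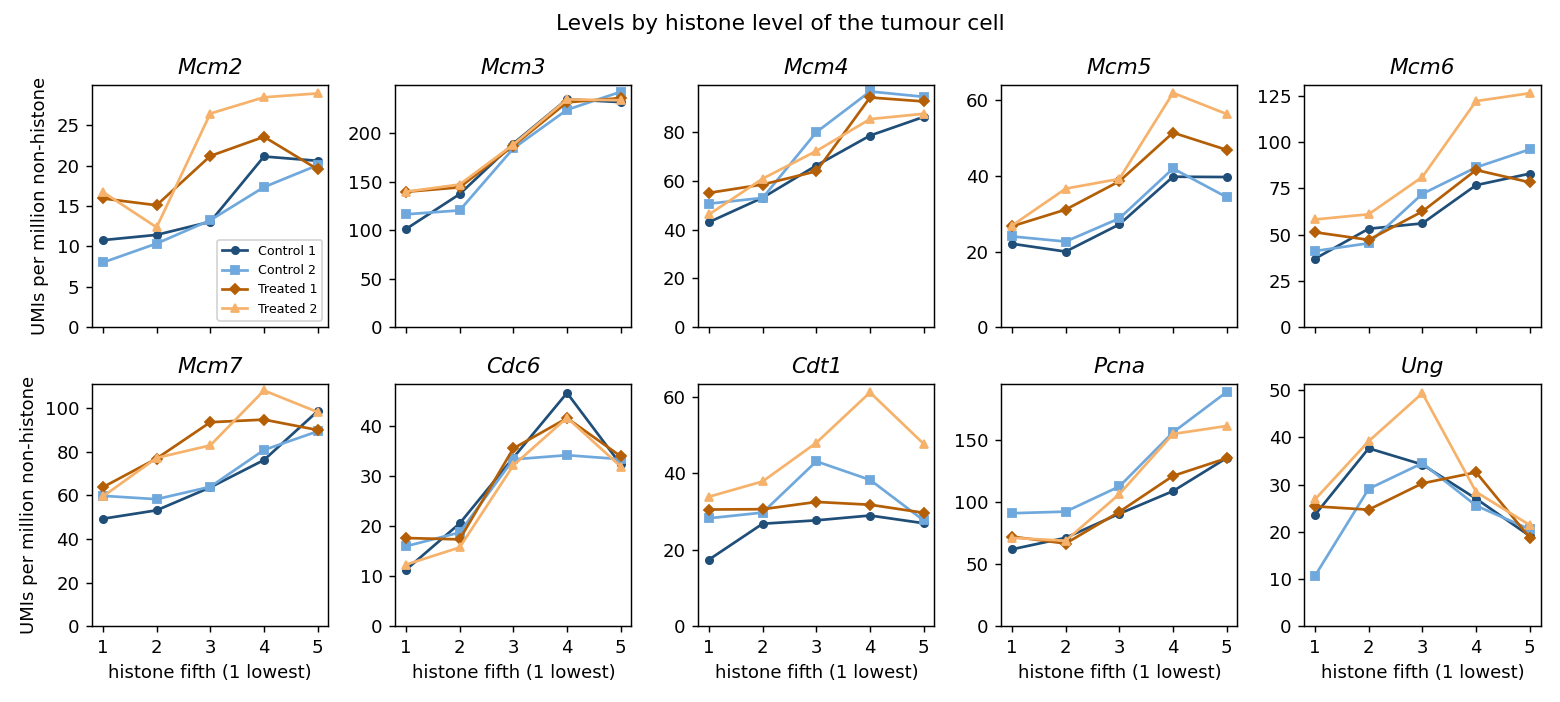
Level of each gene, in CPM over the non-histone genes, in 5 equal bins of tumour cells ranked by histone share within the library (1 lowest, 5 highest), 1 line per library. The helicase genes and Pcna are higher in bin 5 than in bin 1 in every library, Cdc6 is highest in bin 4 at this full depth, and Cdt1 and Ung are not higher in bin 5 in every library.

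With the library as a block, edgeR called 8 of the 10 genes higher in the highest than in the lowest bin, where 9.40% of the 8754 genes tested were called higher. The largest log2 fold changes were 1.19 for Cdc6 (SE 0.15, edgeR adjusted p = 1.7e-10), 1.05 for Pcna (SE 0.07, edgeR adjusted p = 1.59e-25) and 1.01 for Mcm6 (SE 0.09, edgeR adjusted p = 3.81e-18). Mcm3, Mcm4, Mcm5, Mcm2 and Mcm7 followed at 0.91, 0.87, 0.83, 0.76 and 0.68. Cdt1 did not pass, at 0.25 (SE 0.13, edgeR adjusted p = 0.198), and neither did Ung, at -0.15 (SE 0.16, edgeR adjusted p = 0.594). The median over the 10 genes was 0.85, beside 0.00 over all genes tested. After thinning to 5000 UMIs 7 of the 10 were called, where 285 of 5827 genes tested were called higher, and Mcm2 was lost (0.56, edgeR adjusted p = 0.253). Ung was then at -0.62 and still did not pass (edgeR adjusted p = 0.115). With 3 bins in place of 5, Cdt1 was called as well (0.40, edgeR adjusted p = 0.00137). These 10 genes were not used to rank the cells, but cells with more histone RNA may also differ in the number of transcripts captured, and that was not tested beyond the thinning.

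Genes with neighbouring roles rose too. Of the fork and nucleotide genes 27 of 29 were called higher and 0 lower. They included Chaf1b, a histone chaperone subunit, at a log2 fold change of 1.39, Prim1, a primase, at 1.32, Rrm2, of ribonucleotide reductase, at 1.24, and Lig1, the replicative ligase, at 1.21. Of 17 origin and firing genes tested, 10 were higher, led by Cdc45, a helicase partner, at 1.44, and 1 was lower, Dbf4, the activator of the Cdc7 kinase, at -0.64. Among 21 G1/S regulators tested 15 were higher, led by Ccne2, a cyclin E, at 1.54, and 0 were lower. The mitosis list was divided, with 6 of 16 higher and 9 lower. Cdc20 at -1.95, Ube2c at -1.56, Cenpf at -1.46 and Hmmr at -1.40, which act in mitosis, were lower, while Aurkb was at 0.82, Top2a, a topoisomerase, at 0.72 and Mki67 at 0.44.

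In the main fit no gene was called for a difference by histone level that itself differed between groups. With 2 libraries a group, the lack of a call does not show that the differences were equal, and recovery was not simulated for this term. The interaction term of edgeR called 0 of the 10 members and 0.00% of 8754 genes, with 449 genes at an unadjusted p under 0.05. Its lowest unadjusted p among the members was that of Mcm3 (difference of log2 fold changes between groups -0.33, SE 0.13, edgeR adjusted p = 0.965). The term was fitted to the same lowest-bin and highest-bin sums as the Mcm3 levels given above. Its direction therefore adds nothing to those levels. DESeq2 was not run for the interaction.

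Over single cells thinned to 5000 UMIs, the summed members correlated with histone RNA at Pearson's r of 0.36 in Control 1 (799 cells), 0.38 in Control 2 (511 cells), 0.30 in Treated 1 (1151 cells) and 0.37 in Treated 2 (575 cells). The cells of a library share its preparation, and these values are descriptions. Single members reached r of 0.20 to 0.29 for Mcm3, 0.17 to 0.25 for Pcna and -0.06 to 0.02 for Ung. Among 2371 genes with a UMI in at least 20% of the thinned tumour cells of every library, the 10 whose levels were most like the summed members, by the mean of the within-library r, were Hist1h1b (0.34), Hist1h2ae (0.29), Hist1h1e (0.24), Hist2h2ac (0.24), Hist1h2ap (0.24), Lig1 (0.22), Hist1h1d (0.22), Dek (0.19), Rrm2 (0.19) and Atad2 (0.19). All 7 clustered histone genes that could be ranked stood in the first 40 of the ranking.

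The mitosis genes gave a second view of the same cells. Tumour cells of each library were split at the median of the histone share and at the median of the summed share of the 16 mitosis genes. Among cells below the median for histones, Ung stood at 51.1 CPM in those low for mitosis genes and at 5.87 CPM in those high for them in Control 1. The same pair of values was 33.1 and 7.41 CPM in Control 2, 44.0 and 11.4 CPM in Treated 1, and 59.0 and 9.95 CPM in Treated 2. Ung was thus 3.87 to 8.70 times higher in the mitosis-low cells in all 4 libraries. Cdc6 showed values of 29.8 and 4.07, 27.1 and 11.1, 32.7 and 12, and 24.0 and 6.50 CPM in the same order, ratios of 2.44 to 7.32. Above the histone median the ratios were smaller, at 1.97 to 3.65 for Ung and 1.54 to 1.99 for Cdc6.

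In the low-histone cells the ratio was 1.31 to 2.36 for Mcm2, 1.5 to 2.01 for Mcm4, 1.14 to 2.07 for Mcm6, 1.11 to 1.77 for Cdt1 and 1.09 to 1.37 for Mcm3, so these 5 genes were also higher in the mitosis-low cells of every library. Mcm7 gave 0.858 to 1.07, Mcm5 0.990 to 1.06 and Pcna 0.970 to 1.20, so for these 3 genes the libraries lay on both sides of 1. Ung was thus higher in the mitosis-low cells on both sides of the histone median, in control and treated libraries. These ratios are descriptions over cells of 4 libraries.

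**Figure D4:**
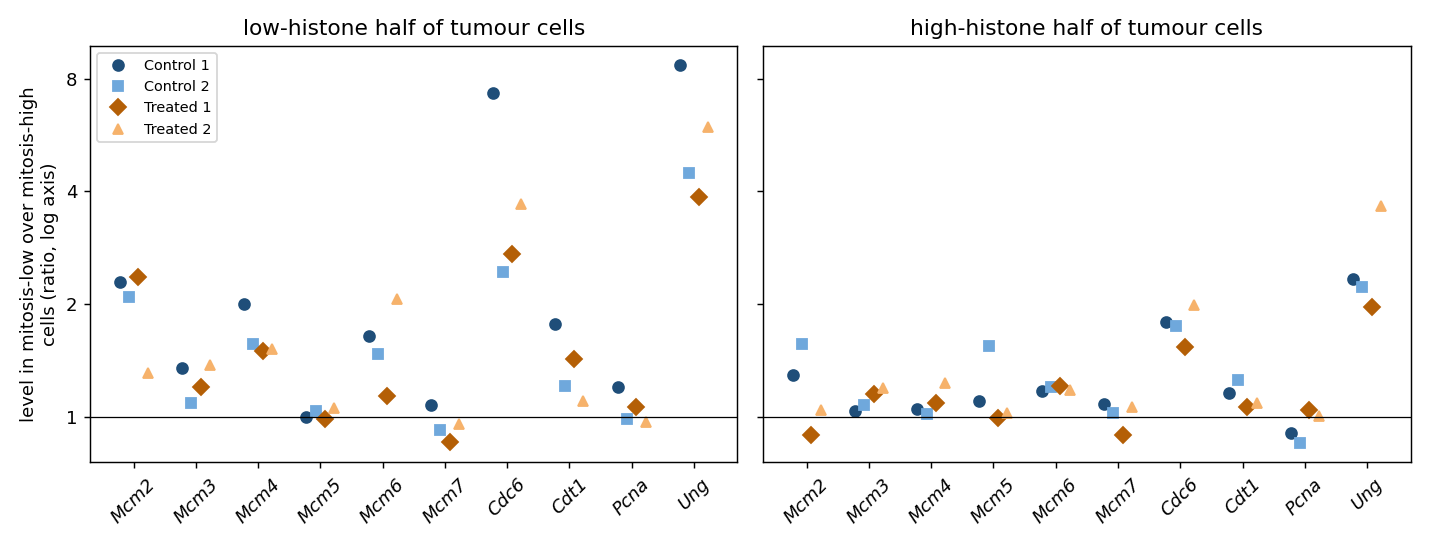
Level in tumour cells below the library's median for summed mitosis genes over the level in cells above it, on a log2-spaced axis, in cells below (left) and above (right) the median histone share, 1 point per library. Ung and Cdc6 lie well above 1 in every library, while Mcm5, Mcm7 and Pcna lie near 1 on the left.

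The third question was how the tumour cells compared with immune cells of the same libraries. Immune barcodes had at most 1 keratin UMI and passed 1 immune gate only, and 495 of them were found in the treated libraries (263 B, 85 T, 101 macrophage-monocyte and 46 neutrophil) against 29 in Control 1 and 11 in Control 2. The controls were too few for a test between groups, and levels are given for both treated libraries together. The 10 genes summed to 692 CPM in tumour cells. The sums in immune cells were 225 CPM in B cells (95% Poisson interval 178 to 281), 368 in T cells (244 to 531), 162 in macrophage-monocyte cells (112 to 228) and 421 in neutrophils (235 to 694), the last from 15 UMIs. As a measure of tumour RNA in these barcodes, Krt7, Krt19, Epcam, Cldn4, Cldn7, Cdh1 and Sfn, tumour genes outside the gate, stood at 5.77% to 9.09% of their tumour level in the 4 classes. The summed licensing genes stood at 23.4% to 60.8% of theirs.

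The genes did not keep 1 ratio to the tumour level. Over all 4 immune classes Mcm3 stood at 12.6% of its tumour level, at 24.0 CPM (13.7 to 39.0) against 190 CPM, and Cdc6 at 10.5%, from 2 UMIs. Mcm6 stood at 59.4%, at 46.5 CPM (31.6 to 66.0) against 78.3 CPM, Cdt1 at 58.5%, Mcm4 at 47.7% and Mcm7 at 45.9%. The intervals of Mcm3 and Mcm6 as shares of their tumour level do not overlap. They cover counting error only, over UMIs pooled from both treated libraries and all 4 classes, and the difference was not tested between libraries. Cdt1 stood at 156% in Treated 1 and 23.6% in Treated 2 and is not settled either. In neutrophils, which do not divide, a UMI of Mcm3 was seen in 4 of 46 cells, or 8.70%, at median depths of 834 and 641 UMIs. These 4 UMIs correspond to 112 CPM (30.6 to 287), or 59.0% of the tumour level, with a wide counting interval. Without thinning Mcm3 was seen in 74.6% and 90.9% of treated tumour cells, at depths of 8892 and 19843 UMIs.

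**Figure D5:**
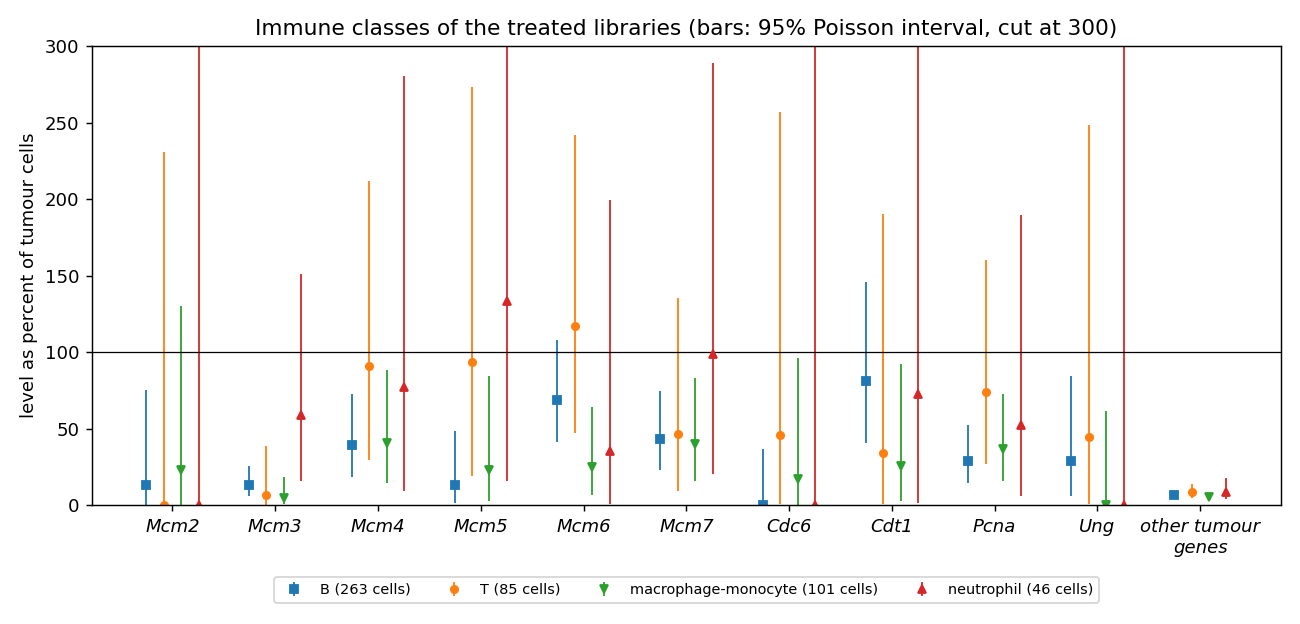
Level of each gene in 4 immune classes of both treated libraries together, as a percent of its level in tumour cells of the same libraries, with 95% Poisson intervals of the immune count, and at the right tumour genes outside the gate as a measure of tumour RNA in these barcodes. Mcm3 is low in B, T and macrophage-monocyte cells, Mcm6 reaches 69.2% in B cells, and most T-cell and neutrophil intervals are wide.

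With the library as a block, 8 of the 10 genes were called higher in tumour than in macrophage-monocyte cells of the treated libraries by edgeR, where 14.9% of the 11018 genes tested were called higher. Mcm3 had the lowest adjusted p of the 10, at a log2 fold change of 4.59 (SE 0.67, edgeR adjusted p = 3.47e-10). It had 0 and 2 UMIs in the macrophage-monocyte cells of the 2 libraries, under the floor of 3 counts used below. The size of its fold change is therefore uncertain. Pcna was at 1.88 (SE 0.53, edgeR adjusted p = 0.00281) and Mcm6 at 2.41 (SE 0.65, edgeR adjusted p = 0.00154). Mcm2 and Cdc6, with 1 UMI each in that class, did not pass (edgeR adjusted p = 0.209 and 0.0789). Ung had no UMI there, so that tumour cells were at least 2.00-fold higher against a floor of 3 counts over both libraries. The median over the 10 was 2.40, or 2.36 with Ung at its bound, while that over all genes tested was 0.78 and the whole scale was thus shifted toward tumour cells. The class summed to few UMIs, and DESeq2 called 1 of the 10, Mcm3, where 836 of 11018 genes were called higher in tumour cells. Against the sum of all 4 immune classes edgeR called 9 of the 10, all but Cdt1 (edgeR adjusted p = 0.257). In that fit 2472 of the 10738 genes tested were called higher in tumour cells.

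Some counts may be shared with other loci. On GRCm38, Mcm7 (chr5:138164583-138172422, minus strand) overlaps Cops6 and Ap4m1 on the opposite strand, and processed pseudogenes with 97.7% identity to Mcm7 over 2157 bases and 99.2% identity to Pcna over 781 bases are annotated but are not in the count tables. How reads common to a gene and its copy were assigned is not given in the sources used here. The other positions are Mcm2 at chr6:88883474-88898780, Mcm3 at chr1:20802968-20820312, Mcm4 at chr16:15623897-15637400, Mcm5 at chr8:75109569-75128439, Mcm6 at chr1:128331590-128359664, Cdc6 at chr11:98907801-98923940, Cdt1 at chr8:122568015-122573554, Pcna at chr2:132249162-132253314 and Ung at chr5:114130386-114139323, all protein coding.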

How the data were processed

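The authors deposited a matrix of raw counts (UMIs by gene and barcode) for each of the 4 libraries, made with Cell Ranger 7.1.0 on mm10 per the submitters' processing notes, while the study's methods name hg38. The deposited counts were not normalized. Barcodes with at least 200 genes and at most 10% mitochondrial UMIs were kept, the limits of the study for DLA, and cells were gated by marker UMIs: at least 5 of Krt8 and Krt18 for tumour cells, 2 for B and T cells, 3 for macrophage-monocyte cells and 10 for neutrophils, with under 20% hemoglobin UMIs for immune cells. No doublet caller was run; tumour cells that pass an immune gate were left out in an alternative.

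UMIs were summed per library and class, since cells are not replicates, and tested with edgeR 4.0.16 (R 4.3.3) (quasi-likelihood, TMM scaling, filterByExpr), with p-values adjusted after Benjamini and Hochberg over all genes and a threshold of 0.05. DESeq2 1.42.0 was an alternative. Cells were thinned to 5000 UMIs, and shares have Clopper-Pearson intervals at 95% (scipy 1.17.1). A class needed at least 20 cells in a library to enter a fit. The planned fit of SP11 against control within an immune class was not run, since no class reached 20 cells in every library. Tumour cells held 9646559, 9477943, 12287495 and 12130122 UMIs.

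On simulated data of the SP11 comparison, over 11213 genes, edgeR recovered 36.4%, 79.1% and 98.5% of genes changed 1.5, 2 and 4-fold, with 16 false calls. For the histone comparison, over 8588 genes, it recovered 64.2%, 88.9% and 100% with 9 false calls, and for the macrophage-monocyte comparison, over 8757 genes, 0%, 4.00% and 28.3% with 1 false call. Named genes are the 10 members, up to 4 called examples of each list and direction, and the 10 genes most like the members. The members and lists were chosen with earlier results of these data known. Gene positions are from GENCODE and promoters from RefSeq, GRCm38.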

Additional observations from a re-analysis of the deposited data

How the results depend on the processing

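The SP11 comparison called 149 genes with DESeq2, 153 without the tumour cells that pass an immune gate, 85 after thinning to 5000 UMIs and 506 with library totals in place of TMM, an alternative chosen after seeing the data. Leaving out 1 library gave 78 to 425 genes, the lowest without Control 2 and the highest without Treated 2. None of these settings called a member. The labels do not say whether equal replicate numbers mark a shared set (correlation of deviations 0.125 over 11588 genes, 2 pairs only). With the replicate block 1038 genes were called and 1 member, Mcm5 (0.33, edgeR adjusted p = 0.0435). Some small member values changed sign: Mcm3 to 0.0312 after thinning, and Mcm3, Mcm4 and Cdc6 to 0.0719, 0.023 and 0.00619 with library totals. Over libraries left out, Mcm6 ranged from -0.0778 to 0.3, Pcna from -0.413 to 0.025 and Ung from -0.0733 to 0.206.

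The histone comparison called 519 genes after thinning, 466 with DESeq2 (7 members, without Mcm2) and 480 without the library block, and its 8 members were called whichever library was left out. The interaction called 3 genes with 3 bins and 0 to 2 with 1 library left out, and no member. Member values of the interaction turned to -0.0746 for Mcm5, -0.222 for Cdt1 and 0.0416 for Ung after thinning. Over libraries left out they ranged from -0.138 to 0.00093 for Mcm4, -0.342 to 0.0554 for Mcm7, -0.329 to 0.128 for Cdc6, -0.324 to 0.31 for Cdt1 and -0.118 to 0.121 for Pcna. The macrophage-monocyte comparison called 1354 genes with a gate of 6 UMIs (1 member, Mcm3), 1869 with DESeq2 and 4430 against all 4 immune classes summed, also chosen after seeing the data. Leaving out a library there was not run, since 1 library leaves no residual degrees of freedom. Without thinning, 0 of 10 shares separated the groups. With at least 2 UMIs per thinned cell 6 did, with Mcm4 lower after SP11. The share of all genes that separated the groups at this setting was not computed, so this count has no background. The cause of each change was not tested, except that fewer UMIs enter after thinning. Depth limits the immune classes most, where several members rest on 0 to 3 UMIs.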

Other observations

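E2F-type letters were found in 22.2% of 18 promoters of the origin and firing genes, 12.5% of 32 of the fork and nucleotide genes and 7.14% of 14 of the mitosis genes, beside 1.86% of all promoters. CCAAT occurred in 92.9% of the mitosis promoters. Cells that passed no gate carried the 10 licensing and G1/S genes at a summed 189 CPM (10 UMIs) in Control 1, 366 CPM (26 UMIs) in Control 2, 425 CPM (215 UMIs) in Treated 1 and 251 CPM (109 UMIs) in Treated 2, so the groups overlapped.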
